A study of Mus musculus with 18 samples.

Results

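The Toll-like receptor genes *Tlr1*, *Tlr2*, *Tlr3*, *Tlr4*, *Tlr5*, *Tlr6*, *Tlr7* and *Tlr9* and *Myd88*, the gene of an adaptor that most of these receptors use, were followed in RNA-seq of mouse lumbar dorsal root ganglia (DRG). These 9 genes were taken by name from the 36737 genes counted. All 9 passed the filter on low counts in every comparison. They were chosen by name, but with earlier results of these data known. The mice were CD1, an outbred strain, and no genotype, transgene or deletion is given for them. The 6 sham mice had sham surgery, the 6 fracture mice had tibial fracture surgery with vehicle, and the 6 fracture+PDX mice had the same surgery with protectin DX (PDX), a lipid mediator made from docosahexaenoic acid. Each group held 3 males and 3 females, and each mouse gave 1 library of whole L3–L5 ganglia. Both fracture groups were sampled on day 3 after surgery, and the sources used here name neither the day for sham mice nor the PDX dose for these animals.

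Toll-like receptors are membrane sensors of microbial molecules and of molecules released by injured cells. TLR1, TLR2, TLR4, TLR5 and TLR6 sit at the cell surface, where TLR2 pairs with TLR1 or TLR6 to bind lipoproteins, TLR4 binds lipopolysaccharide and TLR5 binds flagellin. TLR3, TLR7 and TLR9 sit in endosomes and bind double-stranded RNA, single-stranded RNA and unmethylated CpG DNA. All of these receptors except TLR3 can signal through MyD88, which brings IRAK kinases to the receptor and leads to NF-κB, and TLR3 signals through TRIF, the product of *Ticam1*. In DRG, Toll-like receptors are known from macrophages, glia and sensory neurons, and agonists of some of them change the excitability of nociceptors.

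In GRCm38 (mm10) coordinates of the deposited files, *Tlr1* lies on chromosome 5 from 64924679 to 64933561 and *Tlr6* beside it from 64952031 to 64960048, both on the minus strand. *Tlr2* is on chromosome 3 from 83836272 to 83841767, and *Tlr4* is on chromosome 4 from 66827584 to 66930284. *Tlr5* is on chromosome 1 from 182954788 to 182976044, and *Tlr3* is on chromosome 8 from 45395665 to 45411080. *Tlr7* is on chromosome X from 167304929 to 167330558. *Tlr9* is on chromosome 9 from 106222598 to 106226883, and *Myd88* is on the same chromosome from 119335934 to 119340041. In the GENCODE annotation, *Myd88* overlaps *Slc22a14* on its own strand and *Acaa1a* on the other, and *Tlr3* overlaps the antisense gene *Gm45542*. The libraries were strand-specific, but the strand setting of the counting is not given in the sources used here, so reads from these overlaps were uncertain.

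*Tlr1* and *Tlr6* are the only members whose transcripts share exact stretches as long as 100 bases. Such windows made up 7.89% of those in *Tlr1* transcripts and 7.09% of those in *Tlr6* transcripts, and 0 in the other members. The shared stretches, of 119, 229 and 208 bases, follow each other in 1 coding exon of each gene. From the first to the last, 592 of 595 bases (99.5%) are identical. The following 121 bases span the end of the first stretch and the start of the second, in the direction of the transcript (minus strand), and are shown because a read that falls inside 1 stretch does not tell the genes apart. The capital letter marks the single base that differs, and the *Tlr1* sequence lies at chr5:64925706-64925826 and the *Tlr6* sequence at chr5:64953997-64954117.
Tlr1: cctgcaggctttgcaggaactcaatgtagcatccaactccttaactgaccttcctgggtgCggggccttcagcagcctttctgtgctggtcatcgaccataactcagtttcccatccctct
Tlr6: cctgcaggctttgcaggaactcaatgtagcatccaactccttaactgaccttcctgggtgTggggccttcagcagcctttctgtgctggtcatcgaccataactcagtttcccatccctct
The second stretch alone, at chr5:64925537-64925765 in *Tlr1* and chr5:64953828-64954056 in *Tlr6*, is longer than a usual read and is the same in both genes.
Tlr1 and Tlr6: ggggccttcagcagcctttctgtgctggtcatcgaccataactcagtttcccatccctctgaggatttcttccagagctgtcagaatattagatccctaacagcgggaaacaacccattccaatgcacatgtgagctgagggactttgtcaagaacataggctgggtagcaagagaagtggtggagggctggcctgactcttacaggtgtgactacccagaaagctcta
How the authors assigned reads from these stretches is not given, so the counts of *Tlr1* and *Tlr6* carry this uncertainty throughout.

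All 9 genes were detected in all 18 libraries, at low levels. The smallest count was 27 reads (*Tlr9*) and the largest 876 reads (*Myd88*), in libraries of 63235040 to 82824942 counted reads. Levels between genes were compared with the deposited FPKM, which scales the fragments of a gene by transcript length and by the fragments mapped. In sham ganglia *Myd88* stood highest, with a mean of 3.42 ± 0.294 FPKM (SD, n = 6). It was followed by *Tlr1* (1.39 ± 0.469 FPKM) and *Tlr3* (1.29 ± 0.114 FPKM). A middle group held *Tlr4* (0.707 ± 0.145 FPKM), *Tlr6* (0.637 ± 0.246 FPKM), *Tlr5* (0.602 ± 0.128 FPKM), *Tlr2* (0.568 ± 0.155 FPKM) and *Tlr7* (0.40 ± 0.0780 FPKM). *Tlr9* was lowest, at 0.153 ± 0.0393 FPKM. The ranges of the 6 sham mice were separate only between *Myd88* and *Tlr1*, between *Tlr3* and *Tlr4* and between *Tlr7* and *Tlr9*, while *Tlr1* and *Tlr3*, and each pair of neighbours inside the middle group, had overlapping ranges. Within libraries, *Tlr2* lay above *Tlr7* in 17 of 18, and *Tlr1* above *Tlr3* in 11 of 18. CPM per kilobase of annotated exon gave the same order in sham mice. The members at both ends and *Tlr1*, *Tlr3* and *Tlr7* kept their rank in all 3 groups, while *Tlr4*, *Tlr6*, *Tlr5* and *Tlr2* changed places among themselves. Within groups, the coefficient of variation of CPM (the share of counted reads scaled as in edgeR's cpm function, after TMM normalization) ran from 8.88% for *Myd88* and 10.8% for *Tlr3* to 28.9% for *Tlr9* and 30.1% for *Tlr6*. Counting error alone would give 3.70% for *Myd88*, 7.07% for *Tlr6* and 15.5% for *Tlr9*.

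**Figure D1:**
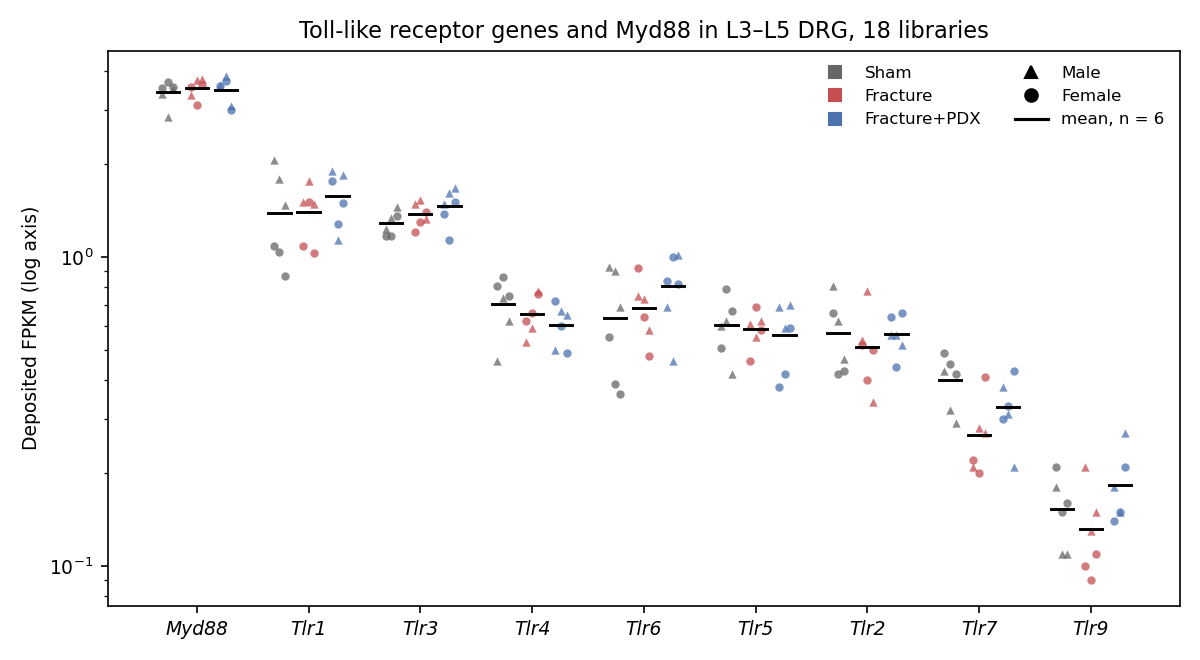
Deposited FPKM (log axis) of the 9 genes in each of the 18 libraries, with groups by colour, sex by symbol and a bar at the mean of 6 mice. *Myd88* is separate from all receptors, *Tlr9* is lowest in all 3 groups, and sham *Tlr1* and *Tlr6* spread widely, with males above females.

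Of the other 4 Toll-like receptor genes, *Tlr13*, a sensor of bacterial ribosomal RNA, had 0.467 ± 0.0758 FPKM in sham mice and *Tlr8*, an endosomal RNA sensor, had 0.227 ± 0.0539 FPKM. *Tlr12* had 0.113 ± 0.0599 FPKM, from 3 to 50 reads per library. *Tlr11* had 0 to 29 reads per library, so its presence could not be told from the floor of 3 reads in every mouse. *Myd88* was similar in level to *Ticam1*, the TRIF adaptor gene, at 3.19 ± 0.254 FPKM in sham mice. *Sarm1*, the TIR-domain gene known for axon degeneration, stood above both at 8.92 ± 0.324 FPKM. *Cd14*, the TLR4 co-receptor, had 2.63 ± 0.351 FPKM, and *Ly96*, which encodes its partner MD-2, had 0.997 ± 0.232 FPKM. *Unc93b1*, which carries the endosomal receptors to endosomes, had 4.63 ± 0.424 FPKM.

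The first comparison asked how the genes differed in ganglia 3 days after fracture. Between fracture and sham mice, 0 of the 9 genes passed the edgeR test at an adjusted p-value under 0.05, against 2.92% of the 20659 genes tested. One of the 9, *Tlr7*, had an unadjusted p-value under 0.05, against 18.5% of all genes tested, and DESeq2 also called 0 of the 9. Of the 9 differences, 4 were positive and 5 negative, with a median log2 difference of -0.03 (all genes tested: 0.00).

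*Tlr7*, the single-stranded RNA sensor, had a lowest, median and highest value of 1.34, 1.93 and 2.17 CPM in sham mice. In fracture mice these were 0.904, 1.11 and 1.84 CPM, and in fracture+PDX mice 0.978, 1.48 and 1.92 CPM. Of the 6 fracture libraries, 5 lay below every sham library, and fracture Female 3, at 1.84 CPM, lay among the sham values, so the groups overlapped. The log2 difference of fracture from sham was -0.58 (SE 0.19, 95% interval -0.99 to -0.16, adjusted p = 0.131, edgeR). The adjusted p-value ranged from 0.0664, without fracture Female 3, to 0.245 when single libraries were left out, and from 0.0648 (DESeq2) to 0.20 under the other settings. *Tlr8*, the neighbouring X-linked receptor gene, had a log2 difference of -0.37 (SE 0.24, adjusted p = 0.456).

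Macrophage markers differed in the same direction as *Tlr7*. All 12 markers of the list had lower values after fracture and 2 of the 12 fell, against 2.92% of all genes tested. These were *Csf1r* (log2 difference -0.47, SE 0.07, adjusted p = 0.00733) and *Adgre1* (log2 difference -0.56, SE 0.10, adjusted p = 0.0139). The list summed to 124 to 162 CPM in sham, 98.8 to 129 CPM in fracture and 94.8 to 133 CPM in fracture+PDX mice, and none of its markers was at or under 3 counts in most libraries. Plasmacytoid dendritic cell markers (5 of 5, 0 called) and B cell markers (5 of 5, 0 called), from other cells known to carry TLR7, also had lower values. Sensory neuron markers went the other way, 6 of 6 with higher values and 2 of them raised (*Tubb3*, log2 difference 0.17, SE 0.03, adjusted p = 0.0126, and *Scn9a*, 0.16, SE 0.04, adjusted p = 0.0451). *Csf1r*, *Adgre1* and *Tubb3* were called in all 12 fits that left out 1 library, and *Scn9a* in 3 of 12, with an adjusted p-value of up to 0.112. With the replicate block the calls of *Adgre1* (adjusted p = 0.0591) and *Scn9a* were lost. Within groups, Pearson's r of *Tlr7* over 18 libraries was 0.31 with the macrophage list, about the same with fibroblast markers (0.30), and -0.35 with Schwann cell and -0.33 with large-diameter neuron markers, a description only. The part of these markers in the *Tlr7* values was not tested, and in whole ganglia fewer cells of a type and less RNA per cell cannot be told apart.

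The other 8 genes differed between fracture and sham by -0.22 to 0.18 on the log2 scale, with adjusted p-values of 0.543 to 0.948. *Myd88* had 8.15, 9.92 and 10.2 CPM (lowest, median, highest) in sham and 8.94, 10.1 and 10.9 CPM in fracture mice. Its log2 difference was 0.06, and the 95% interval, from -0.11 to 0.22, was the narrowest of the 9. *Tlr3* had 6.60, 7.43 and 8.42 CPM in sham and 6.92, 7.89 and 8.77 CPM in fracture mice (log2 difference 0.10, 95% interval -0.07 to 0.27). The groups overlapped for both genes, and their intervals leave out a rise or fall as large as that estimated for *Tlr7*.

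*Tlr4*, the lipopolysaccharide receptor, had 2.86, 4.64 and 5.18 CPM in sham and 3.29, 3.93 and 4.83 CPM in fracture mice (log2 difference -0.09, 95% interval -0.38 to 0.21). *Tlr2* had 1.38, 1.84 and 2.69 CPM in sham and 1.13, 1.69 and 2.60 CPM in fracture mice (log2 difference -0.13, 95% interval -0.59 to 0.32). *Tlr5* had 2.28, 3.26 and 4.12 CPM in sham and 2.46, 3.15 and 3.71 CPM in fracture mice (log2 difference -0.03, 95% interval -0.36 to 0.30). The sham and fracture ranges of these 3 surface receptors lay almost wholly over each other. *Tlr1* (log2 difference 0.06, 95% interval -0.22 to 0.35) and *Tlr6* (0.18, 95% interval -0.28 to 0.64) had their widest spread among sham mice, where the sexes stood apart, as described with the sexes. *Tlr9* had the widest interval, from -0.80 to 0.36, around a log2 difference of -0.22.

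**Figure D2:**
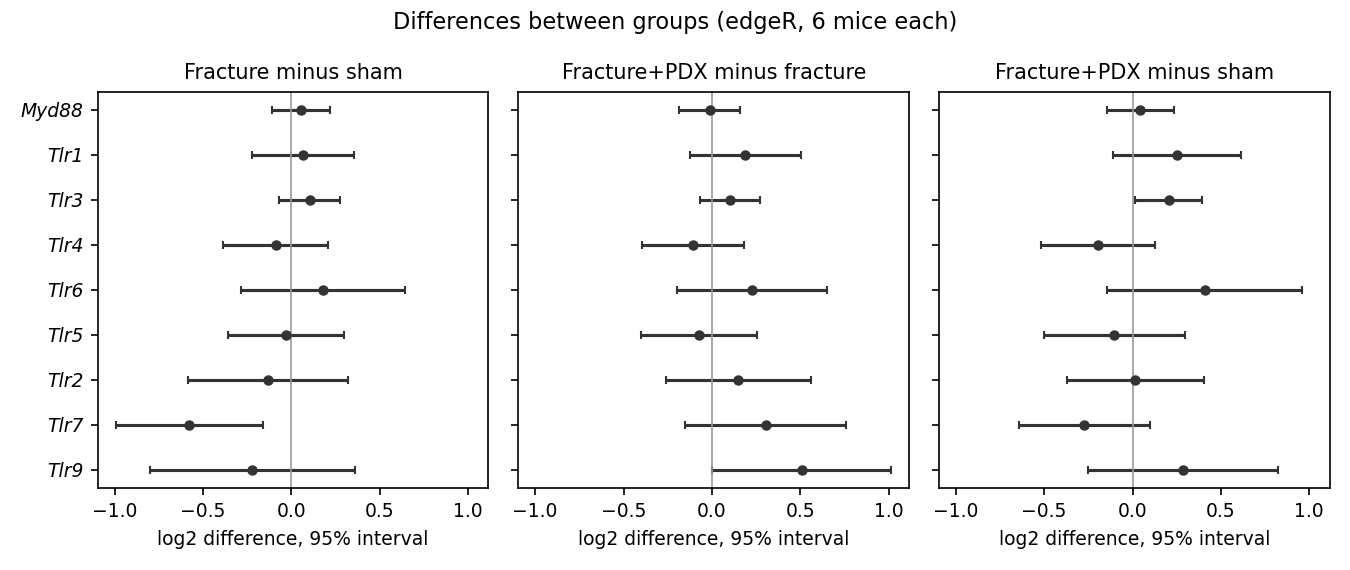
Log2 difference between groups for each gene, with its 95% interval, in edgeR fits to 6 against 6 mice with sex as a covariate. The interval of *Tlr7* lies below 0 for fracture against sham, that of *Tlr9* touches 0 for PDX against fracture, that of *Tlr3* lies just above 0 for PDX against sham, and no gene passed adjustment over all genes.

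The second comparison, fracture+PDX against fracture, asked what PDX changed after the same surgery. Of the 9 genes, 0 had an adjusted p-value under 0.05, as did 0% of the 20562 genes tested. One gene, *Tlr9*, had an unadjusted p-value under 0.05, against 5.41% of all genes tested, and DESeq2 called 0 of the 9. Of the differences, 6 were positive and 3 negative, with a median log2 difference of 0.15, beside 0.00 over all genes. These 2 comparisons share the fracture libraries, so a gene that is low in them is low against both other groups.

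*Tlr9*, the CpG DNA sensor, had 0.344, 0.462 and 0.80 CPM (lowest, median, highest) in fracture mice and 0.527, 0.638 and 1.07 CPM with PDX, beside 0.413, 0.583 and 0.80 CPM in sham mice. The 3 fracture females were the lowest of the 12 mice that had fracture, while 2 of the 3 fracture males lay among the PDX values and 1, at 0.514 CPM, just below them. The log2 difference was 0.51 (SE 0.24, 95% interval 0.0007 to 1.02, adjusted p = 0.912), from 27 to 67 reads per library over all groups. *Tlr7* differed by 0.30 (95% interval -0.15 to 0.76, adjusted p = 0.935) and lay between its sham and fracture levels.

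For *Tlr1* the log2 difference of PDX from fracture was 0.19 (95% interval -0.13 to 0.50), and for *Tlr6* it was 0.23 (95% interval -0.20 to 0.65). *Tlr2* differed by 0.15 (95% interval -0.26 to 0.56) and *Tlr3* by 0.10 (95% interval -0.07 to 0.27). The negative values were those of *Tlr4* (-0.11, 95% interval -0.40 to 0.18), *Tlr5* (-0.07, 95% interval -0.40 to 0.25) and *Myd88* (-0.01, 95% interval -0.18 to 0.16). Every one of these intervals included 0, and the PDX range of each gene overlapped its fracture range. The adaptor gene had 8.38, 10.2 and 11.2 CPM with PDX, and its interval left out a change of 0.2 or more in either direction.

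Against sham, fracture+PDX mice also had 0 of 9 genes with an adjusted p-value under 0.05, where 4.50% of the 20574 genes tested passed, and 1 gene with an unadjusted one, where 18% of all genes did. That gene was *Tlr3*, with 6.74, 8.60 and 9.83 CPM (lowest, median, highest) with PDX and overlapping values in sham mice. Its log2 difference was 0.20 (SE 0.09, 95% interval 0.02 to 0.39, adjusted p = 0.233). *Tlr6* (0.41), *Tlr9* (0.29), *Tlr1* (0.25), *Myd88* (0.04) and *Tlr2* (0.02) had positive log2 differences, and *Tlr7* (-0.27), *Tlr4* (-0.20) and *Tlr5* (-0.10) negative ones, all with adjusted p-values from 0.448 to 0.980. DESeq2 called 0 of the 9. *Tlr8* had a log2 difference of -0.72 (SE 0.32, adjusted p = 0.253), and *Tlr11* was left out by the filter in this comparison.

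Females and males were compared over all 18 libraries with group as a covariate. No member passed adjustment with edgeR (0 of 9, against 0.297% of the 20527 genes tested), and 2 of 9 had an unadjusted p-value under 0.05 (10.4% of all genes tested). *Tlr1* was lower in females, with 3.26, 4.02 and 6.53 CPM (lowest, median, highest of 9) against 4.31, 6.47 and 7.62 CPM in males. The log2 difference of females from males was -0.45 (SE 0.13, 95% interval -0.72 to -0.18, adjusted p = 0.158). DESeq2 gave the same size of difference and called it, with an adjusted p-value of 0.0345, and the other settings gave up to 0.208. When single libraries were left out, the difference stayed between -0.54 and -0.39, and its adjusted p-value between 0.0706 and 0.283.

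The sexes were most separate among sham mice. Sham females had 3.92, 3.79 and 3.26 CPM of *Tlr1*, and sham males had 7.62, 6.67 and 5.52 CPM, with no overlap. In fracture mice the females had 4.02, 5.62 and 3.79 CPM and the males 5.61, 6.47 and 5.60 CPM, so that 1 female lay above 2 males. With PDX, the females had 6.53, 4.85 and 5.49 CPM and the males 7.03, 4.31 and 6.96 CPM, and the ranges overlapped widely.

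*Tlr3* had 6.60, 7.53 and 8.62 CPM in females and 7.09, 8.59 and 9.83 CPM in males, a log2 difference of -0.19 (SE 0.06, adjusted p = 0.267). *Tlr7*, which escapes X inactivation in some immune cells, had 0.904, 1.84 and 2.17 CPM in females and 0.954, 1.34 and 1.93 CPM in males. Its log2 difference was 0.23 (95% interval -0.10 to 0.55, adjusted p = 0.664), and the ranges overlapped. The other members had log2 differences of -0.23 to 0.15 with adjusted p-values of 0.701 to 0.987.

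Whether the fracture difference itself differed between the sexes was tested as an interaction, in which 0 of 9 members and 0% of all genes passed adjustment. Unadjusted p-values under 0.05 were found for 2 of 9 members, where 7.20% of the 20659 genes tested had one, and DESeq2 called 0 of the 9. *Tlr6* had 2.23, 1.59 and 1.497 CPM in sham females and 3.77, 2.66 and 1.97 CPM in fracture females, whereas sham males had 3.87, 3.74 and 2.87 CPM and fracture males 3.12, 3.01 and 2.42 CPM. Female values were thus higher after fracture on average and male values lower, and the interaction was 0.95 on the log2 scale (SE 0.35, 95% interval 0.18 to 1.71, adjusted p = 0.620). All 3 sham females lay below all 3 sham males, as for *Tlr1*.

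*Tlr9* had the opposite arrangement. Its values were 0.80, 0.559 and 0.607 CPM in sham females and 0.394, 0.344 and 0.411 CPM in fracture females, which did not overlap. Sham males had 0.673, 0.413 and 0.454 CPM and fracture males 0.80, 0.514 and 0.605 CPM, which overlapped. The interaction was -1.10 (SE 0.46, 95% interval -2.09 to -0.10, adjusted p = 0.652). In the interaction of sex with PDX, 0 of 9 members passed adjustment (0.00486% of the 20562 genes tested) and 0 had an unadjusted p-value under 0.05 (4.14% of all genes), and DESeq2 called 0. The smallest p-value of the members was that of *Tlr5* (-0.47, 95% interval -1.09 to 0.15, adjusted p = 0.998).

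**Figure D3:**
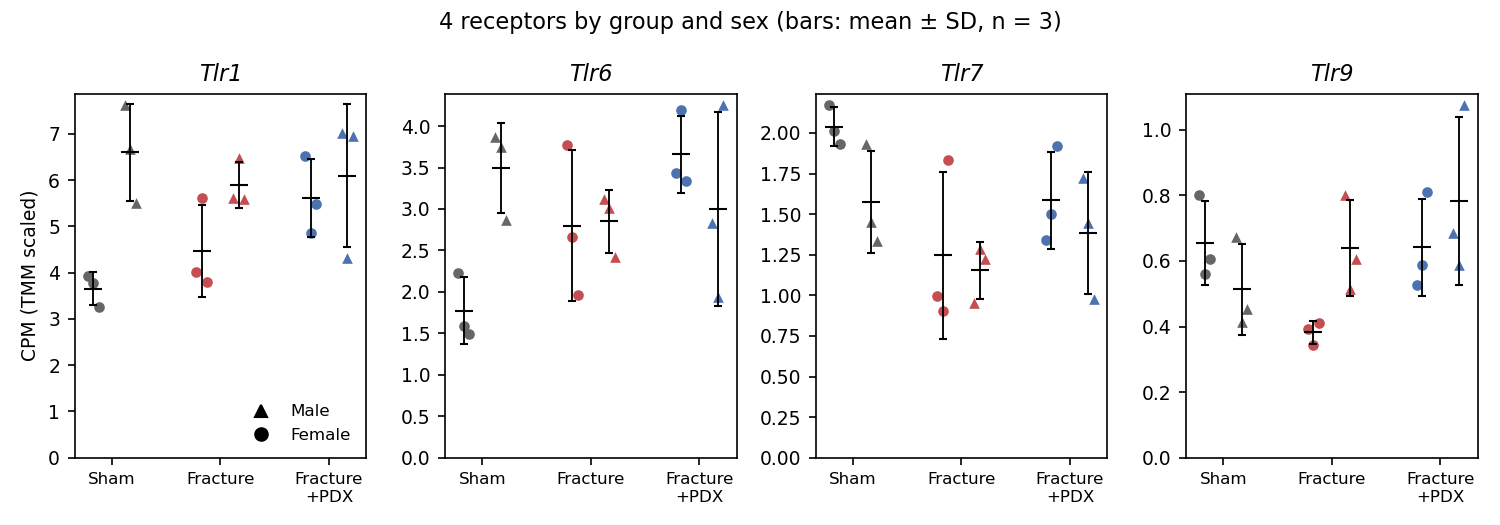
CPM of *Tlr1*, *Tlr6*, *Tlr7* and *Tlr9* by group (colour) and sex (symbol), 1 point per mouse, with the mean ± SD of 3 mice and axes from 0. Sham females lie below sham males for *Tlr1* and *Tlr6*, and the 3 fracture females, at 0.344 to 0.411 CPM, are the lowest points for *Tlr9*.

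Variation among mice of the same group was described with Pearson's r of log2 CPM after subtraction of group means, over the 18 libraries. The highest r among the 36 pairs of members was that of *Tlr1* and *Tlr6* (0.69), the neighbouring genes with the shared stretches printed above. The libraries share their depth, the sexes differ within them and both genes can share reads, and the part of each was not tested. The lowest r values were those of *Tlr2* with *Tlr4* (-0.53) and *Tlr1* with *Tlr4* (-0.52). Members were also set against each marker list, taken as the mean of these log2 deviations over its genes. The lowest r was that of *Tlr1* with macrophage markers (-0.70) and the next that of *Tlr9* with Schwann cell markers (-0.64). The highest was that of *Tlr6* with satellite glial cell markers (0.61). Females, in which *Tlr1* had lower values, had higher values for 11 of 12 macrophage markers, 0 of them called and 2 with an unadjusted p-value under 0.05, and only group means had been subtracted, so the part of sex in this r was not tested.

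**Figure D4:**
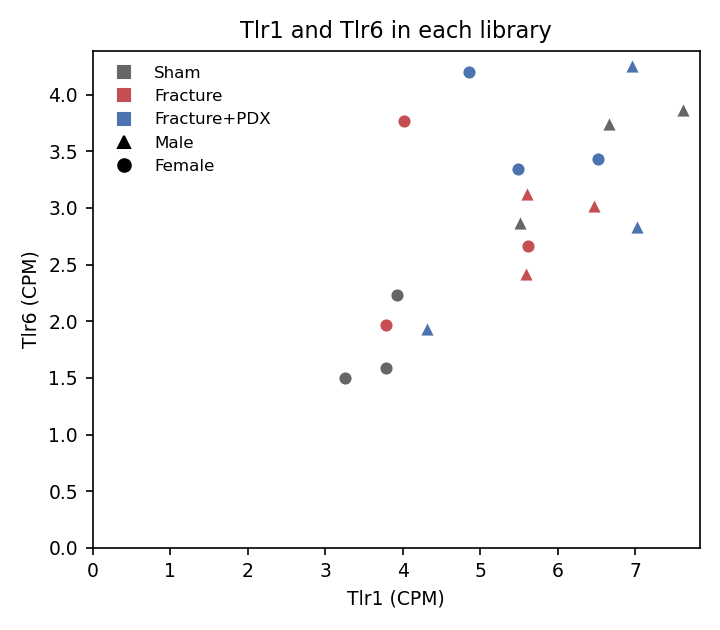
*Tlr1* against *Tlr6* in each library, both in CPM with axes from 0, groups by colour and sex by symbol. The 3 sham females sit at the lower left, below 4 CPM of *Tlr1*, and sham males at the upper right.

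The genes most like each member by the same measure, among 15179 genes with a mean count of at least 100, had r between 0.75 and 0.84, and no member was among them. For *Tlr1* they were *Tcf3*, *Ddx50* and *Eif3l*, for *Tlr6* *Atp6ap1* and *Rnf149*, and for *Tlr2* *Gm5805*, *Bcar1* and *Ift43*. *Tlr4* was most like *Ccnt2*, *Cfap54* and *Utp15*, and *Tlr5* most like *Acap2*, *Dcun1d2* and *Zmiz1*. *Tlr3* was most like *Sephs1*, *Ireb2* and *Golga5*, *Tlr7* most like *Gm50107*, *B130024G19Rik* and *Ankra2*, and *Tlr9* most like *Xpnpep3*, *1700087I21Rik* and *Clrn2*. The genes nearest to *Myd88* were *Gm3222*, *Oas1c* and *Gm16374*. None of the macrophage or neuron markers stood among these genes.

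Genes around the receptors were described as lists. Endogenous ligands, proteins that are known to act on Toll-like receptors when set free in tissue, had lower values after fracture for 12 of 12 genes. Of these, 3 of 12 fell, against 2.92% of all genes tested. Before adjustment, 8 of 12 had a p-value under 0.05, against 18.5% of all genes tested. *Fn1*, which encodes fibronectin, fell from 193 to 276 CPM in sham to 142 to 182 CPM in fracture mice, without overlap (log2 difference -0.54, SE 0.09, adjusted p = 0.0149). *Dcn*, the gene of the matrix proteoglycan decorin, fell by 0.33 on the log2 scale (SE 0.07, adjusted p = 0.0331), from a mean of 582 ± 63.5 to 462 ± 34.1 CPM (SD, n = 6). *Hspa1a*, an inducible Hsp70 gene, fell by 1.05 on the log2 scale (SE 0.23, adjusted p = 0.0451), from 40.4 ± 18.4 to 18.8 ± 1.02 CPM, and its reads are uncertain because *Hspa1b* is nearly identical. The median log2 difference of the list was -0.40, beside 0.00 over all genes tested, and several marker lists moved with it. Lower values were found for markers of neutrophils (12 of 12, 1 called), a list that shares *S100a8*, *S100a9* and *Camp* with the ligands, of macrophages (12 of 12, 2 called) and of monocytes (5 of 5, with *Plac8* called, log2 difference -1.38). The same held for fibroblasts (4 of 4, 0 called) and endothelial cells (4 of 5, with *Cdh5* and *Flt1* called, log2 differences -0.73 and -0.71), for red blood cells (7 of 7, 0 called, median log2 difference -0.53) and for B cell precursors (5 of 5, median -1.42, with *Rag1* called, adjusted p = 0.0251). The part of cell content in these values was not tested. *Fn1* was called in all 12 fits that left out 1 library (adjusted p up to 0.0397) but not with the replicate block (0.0681). *Dcn* was called in 3 of 12 such fits (adjusted p up to 0.0784, without sham Male 2) and *Hspa1a* in 2 of 12 (up to 0.114, without fracture Female 2). Neither was called with the replicate block (0.131 and 0.127).

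Among co-receptors and chaperones, 8 of 10 had lower values after fracture and 1 fell, against 2.92% of all genes tested. Before adjustment, 2 of 10 had a p-value under 0.05, against 18.5% of all genes tested. The gene that fell was *Hsp90b1* (log2 difference -0.18, SE 0.04, adjusted p = 0.0375), whose product gp96 folds most Toll-like receptors. It had 327 to 395 CPM in sham and 302 to 344 CPM in fracture mice. It was called in 3 of 12 fits without 1 library (adjusted p up to 0.0937, without fracture Female 2). Limma on FPKM (up to 0.0758) and the replicate block did not call it. Of 15 induced cytokines and chemokines, 14 were counted and 10 passed the filter. Of these 10, 2 had an unadjusted p-value under 0.05, 8 had lower values and 1 fell. That gene was *Nos2*, inducible nitric oxide synthase, with 0.791 to 2.54 CPM in sham and 0.386 to 1.06 CPM in fracture mice (log2 difference -1.47, SE 0.31, adjusted p = 0.0258). It was called in 6 of 12 fits without 1 library, with an adjusted p-value of up to 0.0643. It was not called with all 18 libraries in 1 fit (0.148) or with the replicate block. Its lowest value with PDX was 0 CPM. No cytokine gene of the list was called, and *Il1b* and *Tnf* had at most 70 and 33 reads in a library.

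In 6 other lists, edgeR called 0 genes after fracture, and before adjustment a p-value was under 0.05 for 3 of 10 transcription factors, 3 of 16 kinases or ligases, 6 of 11 inhibitors, 2 of 4 adaptors and 1 of 5 genes of the IL-1 receptor family, against 18.5% of all genes tested. The transcription factors of the NF-κB and IRF families, with *Spi1*, had lower values for 10 of 10 genes, with the smallest p-value for *Nfkb1* (log2 difference -0.16, SE 0.05, adjusted p = 0.0793). DESeq2 was run on all genes but read here only for the gene with the smallest p-value in each list. It called *Nfkb1* (adjusted p = 0.0321), and the other genes of these lists were not looked up under it. Kinases and ubiquitin ligases were split, 7 with higher and 9 with lower values, led by *Tab3* (log2 difference 0.16, adjusted p = 0.148). Inhibitors had lower values for 8 of 11 genes, led by *Il1rl1* (-0.48, adjusted p = 0.137), the IL-33 receptor gene, whose soluble form is a decoy. Of the other 4 adaptors 3 had lower values, but the smallest p-value was that of *Sarm1*, with a higher one (0.13, adjusted p = 0.127). The IL-1 receptor family, which also uses MyD88, was led by *Il1rap* (-0.22, adjusted p = 0.195), and 3 of 4 other Toll-like receptor genes had lower values.

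With PDX against sham, where 4.50% of all genes tested were called, 5 genes of these 9 lists were called, all with lower values: *Fn1* (log2 difference -0.59, adjusted p = 0.00454), *Hspa1a* (-1.08, adjusted p = 0.0276), *Hsp90b1* (-0.19, adjusted p = 0.0147), *Nos2* (-2.52, adjusted p = 0.0418) and *Il1rap* (-0.28, adjusted p = 0.0257), the shared co-receptor of the IL-1 family. Cell markers called lower in the same comparison included *Csf1r* (macrophages, adjusted p = 0.00431), *Plac8* (monocytes, 0.00339), *Cdh5* and *Flt1* (endothelial cells, 0.00216 and 0.00339) and *Sox10* (Schwann cells, 0.0483), and 5 of 5 endothelial and 5 of 5 Schwann cell markers had lower values. Of the 12 macrophage markers, however, 7 had lower and 5 higher values. Of the 5 monocyte markers, 2 had lower and 3 higher values, with a median log2 difference of 0.22. Both comparisons against sham share the sham mice.

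With PDX against fracture, 0 genes of any of these 9 lists were called. The list genes with the smallest p-values were *Spi1* (log2 difference 0.46, adjusted p = 0.887), the PU.1 factor of myeloid cells, *Il18rap* (0.87, adjusted p = 0.887), *Camp* (1.14, adjusted p = 0.901), *Cd180* (0.57, adjusted p = 0.908), *Socs1* (0.37, adjusted p = 0.917), *Tab3* (-0.09, adjusted p = 0.917), *Tirap* (0.17, adjusted p = 0.917), *Nos2* (-1.08, adjusted p = 0.917) and *Tlr13* (0.26, adjusted p = 0.944). All 12 neutrophil markers, *Camp*, *S100a8* and *S100a9* among them, had higher values with PDX, and 0 were called. Before adjustment, 10 of the 12 had a p-value under 0.05, against 5.41% of all genes tested. Markers of other blood and marrow cells had higher values with PDX as well, with 0 called: monocytes (5 of 5, median log2 difference 0.30), B cells (5 of 5, 0.30), B cell precursors (5 of 5, 0.66), plasmacytoid dendritic cells (5 of 5, 0.75) and red blood cells (7 of 7, 0.28). The sum of the neutrophil markers ran from 90.7 to 398 CPM in sham (median 190), from 96.4 to 204 CPM in fracture (median 113) and from 86.9 to 501 CPM in fracture+PDX mice (median 226). The fracture libraries were thus the low ones by median: against sham they had lower values for 12 of 12 neutrophil markers, 1 of which fell (*Cxcr2*, log2 difference -1.25, adjusted p = 0.0171), while PDX against sham gave 10 of 12 higher, with 0 unadjusted p-values under 0.05.

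**Figure D5:**
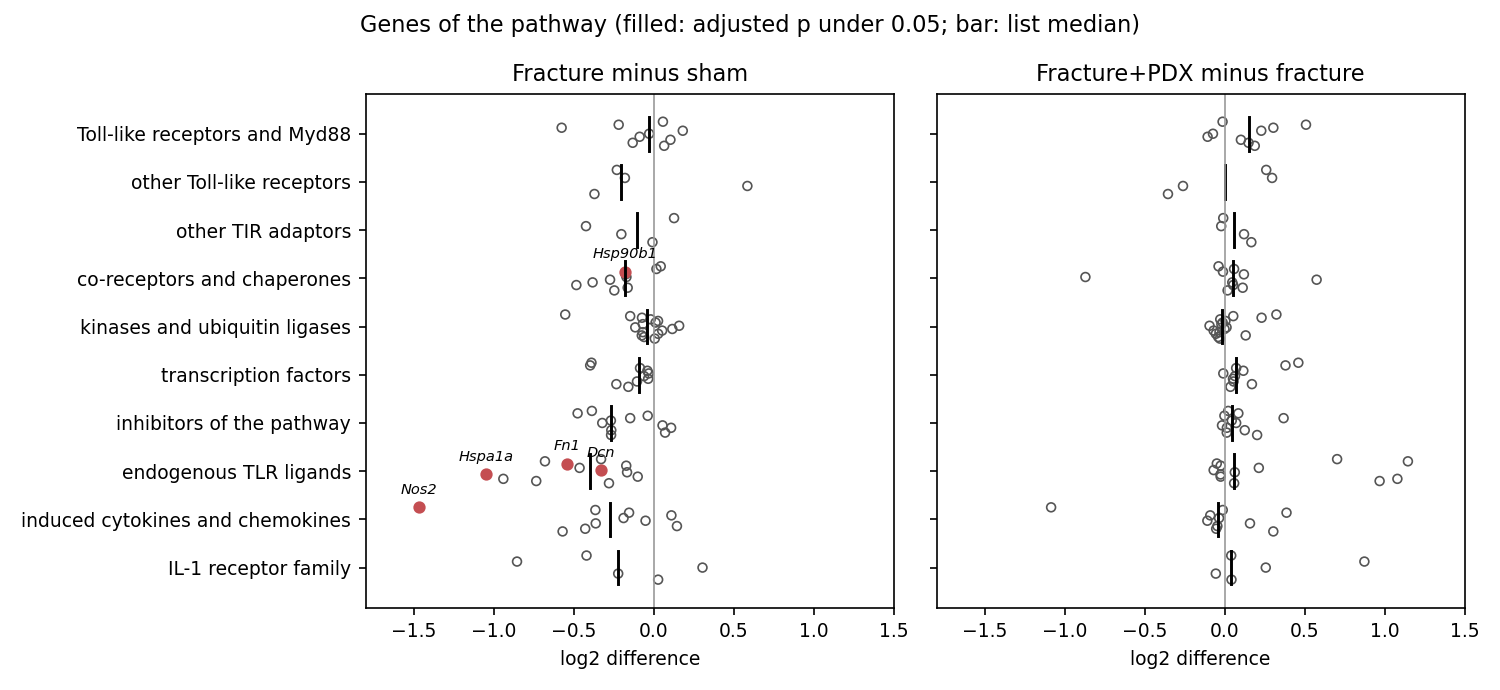
Log2 difference of each tested gene of the pathway, by list, for fracture minus sham and for fracture+PDX minus fracture. Filled points passed adjustment over all genes, bars are list medians, and the 5 filled points (*Fn1*, *Dcn*, *Hspa1a*, *Hsp90b1* and *Nos2*) are all lower after fracture.

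The libraries held the tissue named on their labels, with sensory neuron markers summing to 5366 to 6413 CPM, and *Ddx3y* and *Xist* fitted the labelled sex in all 18. *Xist* still had 7.86 to 14.4 CPM in males, beside 172.5 to 251.8 CPM in females. *Ddx3y* had 1.1 to 3.0 CPM in females, beside 55.9 to 64.2 CPM in males. The source of these low values was not tested. Markers of other tissues were counted too. Trophoblast markers summed to 150 to 487 CPM in sham, 25.5 to 226 CPM in fracture and 25.1 to 120 CPM in fracture+PDX mice. They had lower values after fracture for 5 of 5 genes, with 1 called (*Prl2c2*, log2 difference -2.15, adjusted p = 0.0384), and 5 of 5 were called lower with PDX against sham (median log2 difference -2.23). Skeletal muscle markers summed to 21.7 to 544 CPM in sham (median 71.0), 45.2 to 1063 CPM in fracture (median 317) and 11.2 to 484 CPM in fracture+PDX mice (median 48.7). Muscle markers had higher values after fracture for 6 of 6 genes and lower ones with PDX for 6 of 6, with 0 called, and a median sex by fracture interaction of -3.97 on the log2 scale. Their r was 0.50 with *Tlr9* and 0.45 with *Tlr5*. The part of RNA from other tissues in the levels of the members was not tested.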

How the data were processed

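RNA-seq was analysed in 18 libraries of L3–L5 DRG, 6 mice per group. The authors deposited raw counts per gene and FPKM values for 36737 genes. The submitters' processing notes name cutadapt 1.10, FastQC, HISAT2, StringTie and mm10, and the counting step is not given in the sources used here. Columns named "Con" were read as sham. Libraries held 63235040 to 82824942 counts.

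Counts were tested in R 4.3.3 with edgeR 4.0.16 (TMM, filterByExpr with minimum count 10 and minimum total count 15, robust quasi-likelihood), with sex as a covariate in group comparisons, and p-values were adjusted by Benjamini-Hochberg over all genes tested. "Rose", "fell" and "called" mean an adjusted p-value under 0.05. Standard errors were taken from the estimate and its F statistic. CPM used TMM-scaled library sizes, and log2 CPM for correlations a prior count of 2. Alternatives were DESeq2 1.42.0, upper-quartile factors, 2 filters, no sex covariate, a replicate block, all 18 libraries in 1 fit, limma 3.58.1 on log2(FPKM + 1) and log2(FPKM + 0.1), and leaving out each library.

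Named were the 9 members, the other Toll-like receptors, the 3 genes most like each member and, in each pathway list, called genes or the gene with the smallest p-value. *Ticam1*, *Cd14*, *Ly96*, *Unc93b1*, *Il1b*, *Tnf*, the list genes called for PDX against sham and the cell markers were named outside this rule, after their values were seen. Of the genes most like a member, 1 is not reported here. Members and lists were chosen with earlier results of these data known. Sequences came from GENCODE M21 transcripts (GRCm38). The labels do not name batches, and the p-values cover the spread between these mice.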

Additional observations from a re-analysis of the deposited data

Results flagged for a closer look

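Among 27 sets of 6 values (9 genes in 3 groups), 1 had a library far from the others by Dixon's criterion, which chance meets in about 1 of 20 sets. *Myd88* in sham Male 2 was the lowest of its group at 8.15 CPM, while the other 5 sham mice had 9.64 to 10.2 CPM. The gap was 0.71 of the range of the group, above the critical value of 0.625.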

How the results depend on the processing

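Leaving out single libraries or changing the method left 0 members called in every comparison, except that DESeq2 called 1 (*Tlr1*) between the sexes. Counts over all genes moved more. With DESeq2 they were 1506 for fracture against sham, 10 for PDX against fracture, 1627 for PDX against sham, 323 for the sexes, 58 for sex by fracture and 8 for sex by PDX. For sex by PDX, the filter of 10 counts in every library and limma with either pseudocount gave 0. Without single libraries they ran from 213 (fracture Female 2) to 710, 0 to 1, 498 (PDX Female 1) to 1008, 25 (fracture Female 3) to 79, 0 to 1, and 1 to 2, in the same order.

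With a replicate block that joined mice of 1 sex by their number, fracture against sham gave 118 genes and PDX against sham 486, and 0 members were called. Of the 9 called genes of the pathway, macrophage and sensory neuron lists, the block ended the call of *Fn1* (adjusted p = 0.0681), *Adgre1* (0.0591), *Dcn* (0.131) and *Hspa1a* (0.127), as of *Hsp90b1*, *Nos2* and *Scn9a*, and left those of *Csf1r* and *Tubb3*. All 18 libraries in 1 fit ended those of *Nos2* (0.148), *Scn9a* (0.11) and *Dcn*, limma on either FPKM scale those of *Hsp90b1* (up to 0.0758), *Hspa1a* and *Scn9a*, and no filter those of *Dcn* and *Hspa1a*. The values of *Cxcr2*, *Plac8*, *Cdh5*, *Flt1*, *Rag1* and *Prl2c2*, and of the list genes for PDX against sham, were not looked up under these settings. The labels do not say whether same-numbered mice share more than a number. Deviations from the means of each group and sex correlated at -0.07 to 0.13 over 18 same-numbered pairs (median 0.02). Over 36 pairs of other numbers they correlated at -0.12 to 0.10 (median -0.01). These values do not settle whether the number marks a batch.

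Signs changed only for log2 differences whose 95% intervals included 0, up to 0.28 in size (*Tlr2*, sex by PDX). For PDX against sham, *Tlr2* was -0.0005 with limma on log2(FPKM + 1). Between the sexes, *Myd88* was 0.0002 with upper-quartile factors, 0.0081 with limma on log2(FPKM + 1) and 0.0107 on log2(FPKM + 0.1). Without single libraries, fracture against sham ran from -0.048 to 0.138 for *Tlr1* and -0.115 to 0.048 for *Tlr5*. PDX against fracture ran from -0.0488 to 0.0289 for *Myd88* and -0.130 to 0.0229 for *Tlr5*. PDX against sham ran from -0.0045 to 0.10 for *Myd88*, -0.058 to 0.132 for *Tlr2* and -0.22 to 0.0025 for *Tlr5*. The sexes ran from -0.0397 to 0.0257 for *Myd88*. Sex by fracture ran from -0.12 to 0.46 for *Tlr2* and -0.0857 to 0.0672 for *Tlr3*. Sex by PDX ran from -0.0499 to 0.538 for *Tlr2*, -0.299 to 0.0137 for *Tlr4*, -0.11 to 0.47 for *Tlr7* and -0.0486 to 0.135 for *Myd88*. The causes were not tested. Depth limits *Tlr9* most, with 27 to 67 reads per library.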
